A study of Mus musculus with 12 samples.

Results

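Messenger RNA of the AP-1 transcription factor family was followed across 9 genes: Fos, Fosb, Fosl1 (which encodes FRA1), Fosl2 (FRA2), Jun, Junb, Jund, Atf3 and Maff. Every probe set that the platform's table annotates to these genes was taken, which gave 11 of the 22690 probe sets and 9 of the 12393 genes on the array. The genes were proposed with results of these arrays known, so their differences are a description, and the p-values given come from a fit over all genes and carry no independent support.

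RNA was measured on 12 single-color arrays, 1 per sample. The first group was 3 mammary glands of NMRI females, taken on the first day of lactation and carrying no transgene in the labels (NMRI glands 1 to 3). The second was 3 glands of WAP-SVT/t mice of the NMRI strain at the same stage (WAP-SVT/t glands 1 to 3), and the third was 3 breast cancers of WAP-SVT/t mice (tumors 1 to 3). The transgene puts the SV40 T and t antigens under the promoter of the whey acidic protein gene Wap, and per the labels mammary epithelial cells alone make them. Muscle, fat, immune and connective tissue cells in the same sample carry the transgene without that expression. Cultured cells from breast cancer made up the rest: ME-A, the revertant ME-B and the retransformed ME-B-T/t, with 1 array each. Neither their animal of origin nor their culture conditions are in the labels, which also give no mouse ages. The tissue samples are numbered, and the design text counts 3 mice or cancers per group. The p-values therefore measure the spread between these samples, and the number of arrays limits the precision.

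AP-1 is a dimer of proteins with a basic DNA-binding region and a leucine zipper. FOS proteins need a JUN partner, whereas JUN proteins can also pair with each other and with ATF factors, and small MAF proteins are relatives that join this network. Growth factor and stress signalling through the MAP kinases switches on Fos, Fosb, Jun, Junb and Atf3 within minutes as immediate early genes, while Fosl1 and Fosl2 follow more slowly and Jund is made in most cells at rest. In mammary epithelium, AP-1 is known for roles in growth control, in involution after lactation, and, for FRA1, in invasive carcinoma cells.

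The promoters of 8 of the 9 genes were matched in RefSeq (GRCm38.p6), in 10 windows, and the 250 bases before each start were searched. Windows of Fos, Jun, Atf3 and Maff are shown where they hold a CRE or a near match, the site that pairs of JUN, ATF and CREB factors bind. The last 130 bases before the start are printed 5′ to 3′ on the gene's strand, with the match in capitals. The Fos window is chr12:85473760-85473889 (+), the Jun window chr4:95052223-95052352 (-) and the Atf3 window chr1:191183334-191183463 (-). The Maff windows shown are chr15:79347390-79347519 (+), called start 1 here, and chr15:79348272-79348401 (+), called start 2. A further Maff window, chr15:79346491-79346620 (+), lies before these, held no match and is not shown.
Fos: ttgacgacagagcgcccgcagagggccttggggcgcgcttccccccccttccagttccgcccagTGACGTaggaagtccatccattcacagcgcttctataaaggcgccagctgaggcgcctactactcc
Jun: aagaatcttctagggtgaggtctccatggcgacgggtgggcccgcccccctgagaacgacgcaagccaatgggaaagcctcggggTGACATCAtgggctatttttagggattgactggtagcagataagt
Atf3: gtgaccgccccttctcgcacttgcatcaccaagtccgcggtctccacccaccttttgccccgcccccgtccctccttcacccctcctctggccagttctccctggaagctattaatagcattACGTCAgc
Maff, start 1: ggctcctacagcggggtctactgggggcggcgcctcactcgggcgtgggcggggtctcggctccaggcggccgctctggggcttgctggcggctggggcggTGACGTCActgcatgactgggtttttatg
Maff, start 2: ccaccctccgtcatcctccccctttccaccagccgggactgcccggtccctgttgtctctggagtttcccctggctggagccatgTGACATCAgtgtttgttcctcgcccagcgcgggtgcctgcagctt
The full CRE TGACGTCA, its own reverse complement, stood in 1 of the 10 windows, that of Maff start 1, 29 bases before the start, against 1.55% of all 32851 windows. The variant TGACATCA or its reverse complement TGATGTCA stood in 2 of the 10, those of Jun and Maff start 2, in each 45 bases before the start, against 2.93% of all windows. The shorter core TGACGT or its reverse complement ACGTCA, which overlaps the full CRE, stood in 3 of the 10, those of Fos, Atf3 and Maff start 1, against 6.47%. It lay 66 bases before the start in Fos and 8 in Atf3. The AP-1 site TGACTCA or TGAGTCA was found in 0 of the 10 windows and in 4.46% of all windows. The CArG box, bound by serum response factor, was found in 0 of the 10 and in 1.47% of all. Sites farther upstream than 250 bases were not searched. These matches describe letters in the windows and not measured binding.

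Array-wide properties that touch the results were as follows. Scaled signals were floored at 57.4 before log2 values were taken, and 69.1% to 73.8% of probe sets lay above that floor on each array. Each array also carries control probe sets at both ends of the Gapdh transcript, and their 3-prime over 5-prime signal rises where RNA is degraded or copied incompletely. That ratio was 12.9, 2.28 and 40.3 in NMRI glands 1 to 3 and 10.7, 2.49 and 22.5 in WAP-SVT/t glands 1 to 3. It was 5.63, 0.982 and 0.969 in tumors 1 to 3 and 0.753 to 0.95 in the lines. All 12 luminal epithelial markers were above the floor in every tissue and in ME-A, against 6 in ME-B and 5 in ME-B-T/t, where Epcam, at 9.0 and 13.2, lay below it. All 12 skeletal muscle markers were above the floor in the NMRI glands, WAP-SVT/t gland 3 and tumor 1, against 10 in WAP-SVT/t glands 1 and 2, 4 in tumor 2 and 3 in tumor 3. Their summed signal ran from 13094 to 27395 in the NMRI glands, from 1378 to 27035 in the WAP-SVT/t glands and from 329 to 15246 in the tumors. Of the 8 adipocyte markers on the array, 7 or 8 were above the floor in each gland, 6 in tumor 1 and 4 in tumors 2 and 3, and their summed signal was 25954 or more in each gland, 12393 in tumor 1, 1159 in tumor 2 and 1505 in tumor 3.

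None of the AP-1 genes tested passed in any of the 3 tissue comparisons or between lines and tumors (limma over all genes, adjusted p under 0.05). A gene was tested where at least 3 arrays of the fit lay above the pooled median signal of 139.9. This left 6 of the 9 genes among tissues (Fos, Fosl2, Jun, Junb, Jund and Atf3), and 7 of 9, with Maff added, between lines and tumors. Over all genes, 10.1% of 7899 were called between WAP-SVT/t and NMRI glands, 2.95% between tumors and WAP-SVT/t glands, 24.7% between tumors and NMRI glands, and 2.3% of 7344 between lines and tumors. These comparisons share arrays, since the WAP-SVT/t glands, the NMRI glands and the tumors each enter 2 or more of them. The lines are different lines and not replicates of the same condition, and by their names ME-B and ME-B-T/t may not be independent. Wherever the lines are taken as a group, the SD, SE and p-value rest on the spread between different lines and serve as description only. In tissue, a lower signal can mean fewer cells of a type or less RNA per cell, and these cannot be told apart.

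**Figure D1:**
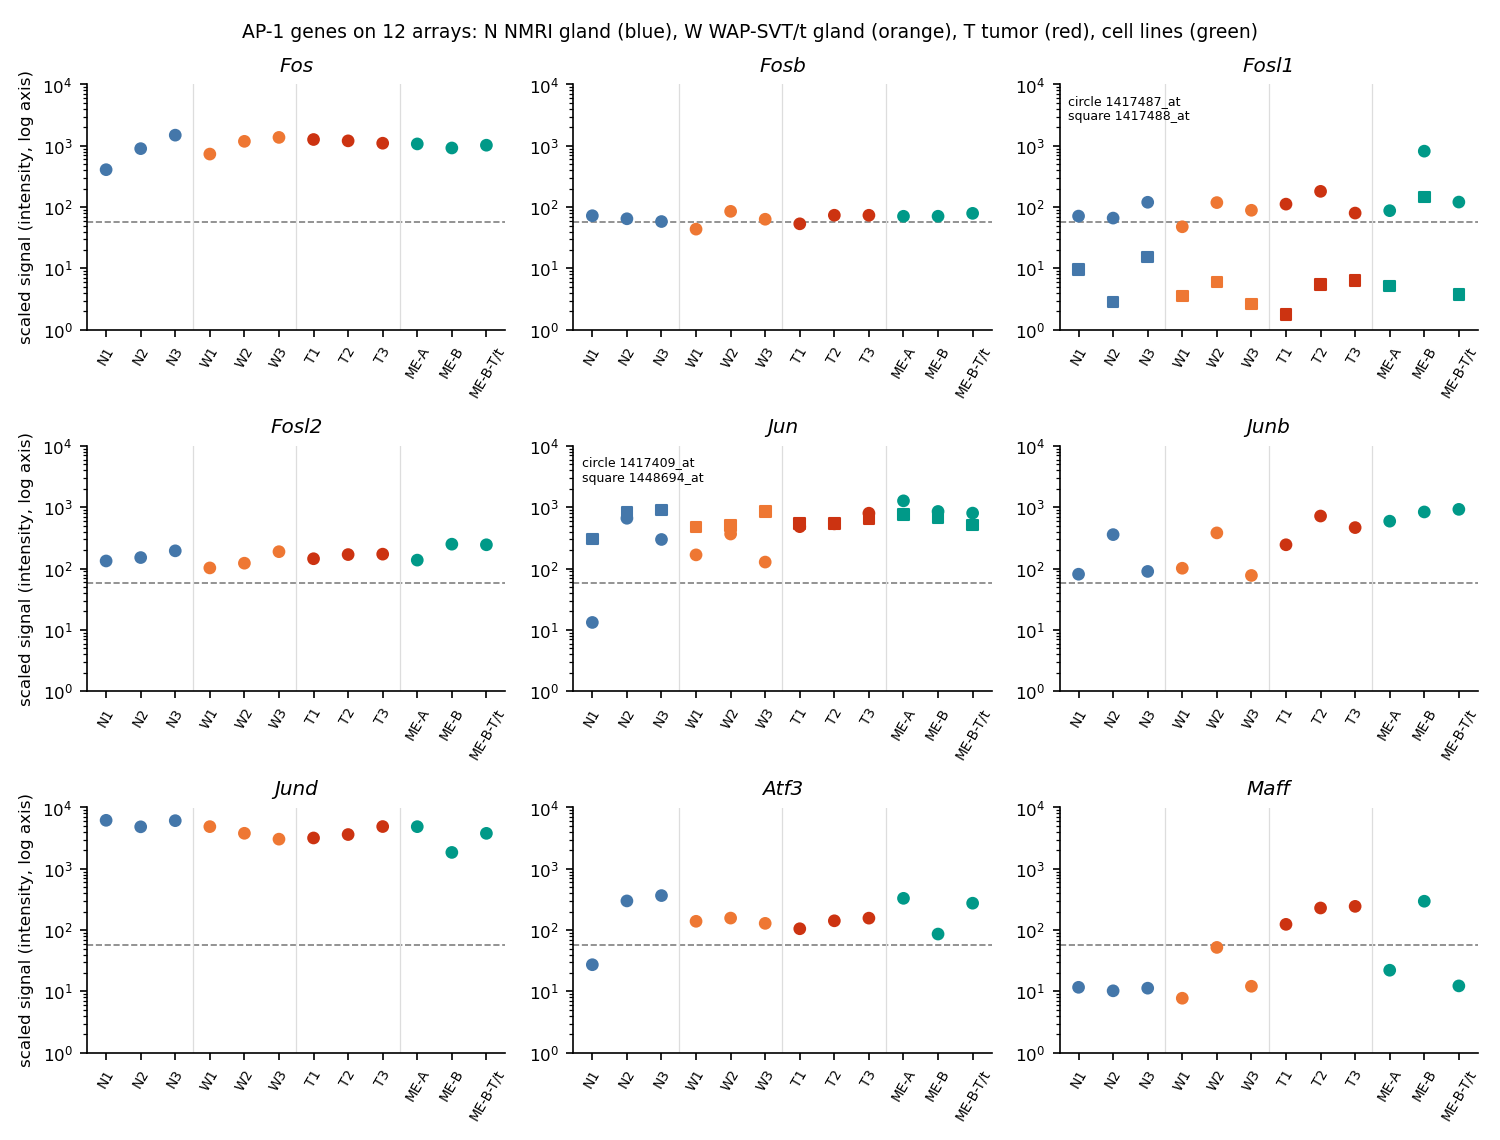
Scaled array signal (intensity, log axis) of each AP-1 probe set on the 12 arrays, with N for NMRI glands, W for WAP-SVT/t glands, T for tumors and the 3 cell lines at the right; the dashed line is the floor of 57.4. Fosl1 stands at 818.3 in ME-B, Maff lies above the floor in the 3 tumors and in ME-B, and Junb and the Jun probe set 1417409_at are spread widely among the glands.

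Fos encodes the founding FOS subunit, whose messenger RNA is normally short-lived. Its signal (1423100_at) was 408.1, 899.4 and 1492.1 in NMRI glands 1 to 3, 733.6, 1183.2 and 1371.3 in WAP-SVT/t glands 1 to 3, and 1267.2, 1205.0 and 1102.6 in tumors 1 to 3. The lines gave 1073.8 in ME-A, 922.0 in ME-B and 1023.0 in ME-B-T/t. All 12 values were well above the floor, and the ranges of the 3 tissue groups overlapped. The SD was 543 in NMRI glands, 328 in WAP-SVT/t glands, 83.1 in tumors and 77.2 among the lines (n = 3 each). An SD of 3 arrays is imprecise, and this order was not tested. The range of the Gapdh ratio narrowed in the same order, and its part in the Fos spread was not tested. The log2 difference was 0.37 (SE 0.41) between WAP-SVT/t and NMRI glands, 0.17 (SE 0.41) between tumors and WAP-SVT/t glands, and 0.54 (SE 0.41) between tumors and NMRI glands. For the last, the limma adjusted p was 0.372, and the 95% interval, -0.37 to 1.45, ran from 0.773-fold to 2.74-fold. The lines all lay below the tumors, by 0.24 on the log2 scale (SE 0.19, limma adjusted p = 0.548). That SE and p-value take different lines as a class.

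Fosb, the closest relative of Fos, lay near the floor in every sample. Its signals (1422134_at) ranged from 43.8 in WAP-SVT/t gland 1 to 85.4 in WAP-SVT/t gland 2, and 0 of the 12 arrays exceeded the median filter, so it was not tested. Group means were 65.1 ± 7.13 in NMRI glands, 64.2 ± 20.8 in WAP-SVT/t glands, 67.0 ± 11.7 in tumors and 73.7 ± 4.74 in lines (SD, n = 3 each).

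Fosl1, the gene of FRA1, was bright on 1 array only. On 1417487_at it read 71.4, 66.3 and 120.0 in NMRI glands 1 to 3, 47.8, 118.6 and 88.9 in WAP-SVT/t glands 1 to 3, and 111.9, 180.9 and 80.0 in tumors 1 to 3. The lines read 87.5 in ME-A, 818.3 in ME-B and 121.0 in ME-B-T/t. The tissue groups overlapped, and the array next below ME-B was tumor 2. On the second probe set, 1417488_at, ME-B read 145.9 and each of the other 11 arrays was below the floor, at 15.4 or less.

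Fosl2, the gene of FRA2, differed little between the tissue groups. Its signals (1422931_at) were 133.3, 151.6 and 195.2 in NMRI glands 1 to 3, 102.7, 122.6 and 189.0 in WAP-SVT/t glands 1 to 3 and 145.0, 169.5 and 172.2 in tumors 1 to 3. The tissue groups overlapped, and the log2 differences lay between -0.24 and 0.28 (SE 0.29 each). The lines read 137.7 in ME-A, 250.5 in ME-B and 245.0 in ME-B-T/t, so both ME-B lines were above all tissue samples and ME-A was inside their range.

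Jun, the founding JUN subunit, had 2 probe sets that disagreed. On 1448694_at, the probe set that stood for Jun among tissues, the signals were 304.1, 836.4 and 901.3 in NMRI glands 1 to 3, 476.0, 500.3 and 850.1 in WAP-SVT/t glands 1 to 3 and 546.5, 539.0 and 651.7 in tumors 1 to 3. The groups overlapped, and the 3 log2 differences lay between -0.09 and -0.03 (SE 0.40 each). On 1417409_at the signals were 13.3, 662.6 and 298.8 in the NMRI glands, 167.7, 366.8 and 127.9 in the WAP-SVT/t glands and 483.5, 537.2 and 801.6 in the tumors. By this probe set the tumors were all above the WAP-SVT/t glands and overlapped the NMRI glands, since NMRI gland 2 read as high as tumors. Their log2 differences were 1.58 (limma adjusted p = 0.345) and 1.40 (limma adjusted p = 0.195), and neither passed. The lines read 1275.1, 856.4 and 804.4 on 1417409_at in ME-A, in ME-B and in ME-B-T/t, and 763.8, 672.4 and 512.3 on 1448694_at.

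Junb, a JUN subunit that can oppose Jun in growth control, had the largest SE of the 6 genes tested among tissues. Its signals (1415899_at) were 81.1, 358.7 and 90.0 in NMRI glands 1 to 3, 101.5, 382.7 and 77.4 in WAP-SVT/t glands 1 to 3 and 245.1, 720.9 and 467.0 in tumors 1 to 3. Gland 2 of each genotype reached the range of the tumors, so the groups overlapped. The tumors differed from the WAP-SVT/t glands by 1.59 on the log2 scale (SE 0.69, limma adjusted p = 0.281) and from the NMRI glands by 1.66 (SE 0.69, limma adjusted p = 0.103). The 95% interval of the latter ran from 0.14 to 3.17, or 1.10-fold to 9.03-fold. Between the genotypes the difference was 0.07 (SE 0.69). The lines read 594.1, 840.0 and 926.2 in ME-A, in ME-B and in ME-B-T/t, inside or above the range of the tumors, with a log2 difference of 0.83 (SE 0.42, limma adjusted p = 0.367).

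The Junb signal ran opposite to the Gapdh ratio. The 4 arrays with a ratio of 10.7 or more, NMRI glands 1 and 3 and WAP-SVT/t glands 1 and 3, were the 4 lowest for Junb, at 77.4 to 101.5. Over the 12 arrays, Pearson's r between log2 Junb and log2 of the ratio was -0.96, a description of arrays that also differ in tissue. For the other 6 genes above the filter on at least 3 of the 12 arrays, that r lay between -0.51 (Maff) and 0.36 (Jund). Jun stood there by 1448694_at. On Jun 1417409_at the same 4 arrays were also the 4 lowest, at 13.3 to 298.8, and r was not computed for that probe set. With the ratio as a covariate the Junb difference came to 0.29 between tumors and WAP-SVT/t glands and 0.16 between tumors and NMRI glands. Without NMRI gland 2, the tumors were 2.35 above the NMRI glands and passed (limma adjusted p = 0.0323). The part of RNA quality in the Junb and Jun values was not tested further.

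**Figure D2:**
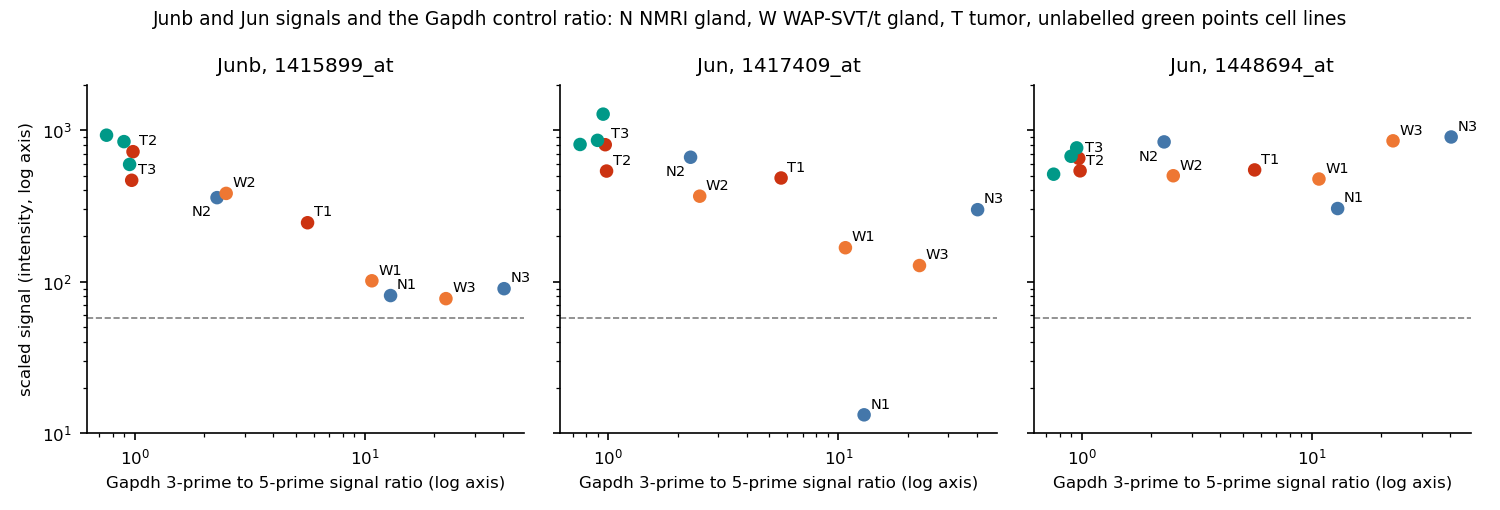
Scaled signal of Junb and of both Jun probe sets (log axis) against the Gapdh 3-prime to 5-prime control ratio (log axis) on the 12 arrays; points are arrays, colored by group, and the dashed line is the floor. Junb and Jun 1417409_at are low where the ratio is 10.7 or more, while Jun 1448694_at reads 304.1 to 901.3 on those arrays.

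Jund, the JUN subunit made in most resting cells, was bright everywhere. Its signals (1449117_at) were 6180.5, 4842.7 and 6098.3 in NMRI glands 1 to 3, 4876.0, 3796.3 and 3045.9 in WAP-SVT/t glands 1 to 3 and 3184.8, 3622.7 and 4891.9 in tumors 1 to 3. NMRI gland 2 was just below WAP-SVT/t gland 1 and tumor 3, and the other NMRI glands were above all other arrays. Both WAP-SVT/t groups differed from NMRI glands by -0.56 on the log2 scale (SE 0.23, limma adjusted p = 0.147 for the glands and 0.0959 for the tumors), with a 95% interval of -1.07 to -0.06 in each. The tumors differed from the WAP-SVT/t glands by 0.00 (SE 0.23). After quantile normalization the difference between tumors and NMRI glands shrank to -0.11. Among the lines, ME-B was lowest at 1850.8, below every tissue sample, against 4869.4 in ME-A and 3787.9 in ME-B-T/t.

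Atf3, a stress-induced factor that pairs with JUN proteins, was evenly expressed in transgenic samples and uneven in NMRI glands. Its signals (1449363_at) were 27.3, 299.5 and 366.0 in NMRI glands 1 to 3, 139.3, 157.2 and 129.0 in WAP-SVT/t glands 1 to 3 and 105.4, 142.0 and 156.9 in tumors 1 to 3. NMRI gland 1 was below the floor and the other NMRI glands were above all 6 transgenic samples. The log2 differences from NMRI glands were -0.39 for WAP-SVT/t glands and -0.47 for tumors (SE 0.57 each). Without NMRI gland 1 they were -1.23 (limma adjusted p = 0.0452) and -1.32 (limma adjusted p = 0.0163), so this 1 array decided whether Atf3 passed. NMRI gland 1 was also the lowest array for Fos and for both Jun probe sets, with a Gapdh ratio of 12.9. NMRI gland 3, with a ratio of 40.3, was the highest array for Fos, Jun 1448694_at and Atf3. For Atf3 the lines read 330.2 in ME-A, 86.3 in ME-B and 274.9 in ME-B-T/t.

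Maff, a small MAF protein without a transactivation domain, was below the floor in all 6 glands and above it in all 3 tumors. Its signals (1418936_at) were 11.7, 10.2 and 11.3 in NMRI glands 1 to 3, 7.8, 52.2 and 12.1 in WAP-SVT/t glands 1 to 3 and 124.3, 229.7 and 244.2 in tumors 1 to 3. The tumors were at least 3.32-fold higher than either gland group, counted from the floor. With 2 tissue arrays above 139.9, Maff missed the filter of 3 and was not tested among tissues. In the fit without that filter, over all 12393 genes, it passed against both gland groups (log2 difference 1.73, SE 0.24, limma adjusted p = 0.0386 against WAP-SVT/t glands and 0.00518 against NMRI glands). All 6 glands entered that fit at the floor value, so this SE holds no spread between glands and these p-values do not measure it. Adipocyte, muscle and milk markers also differed between glands and tumors, and their part in the Maff values was not tested. The lines read 22.2 in ME-A, 296.0 in ME-B and 12.3 in ME-B-T/t.

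**Figure D3:**
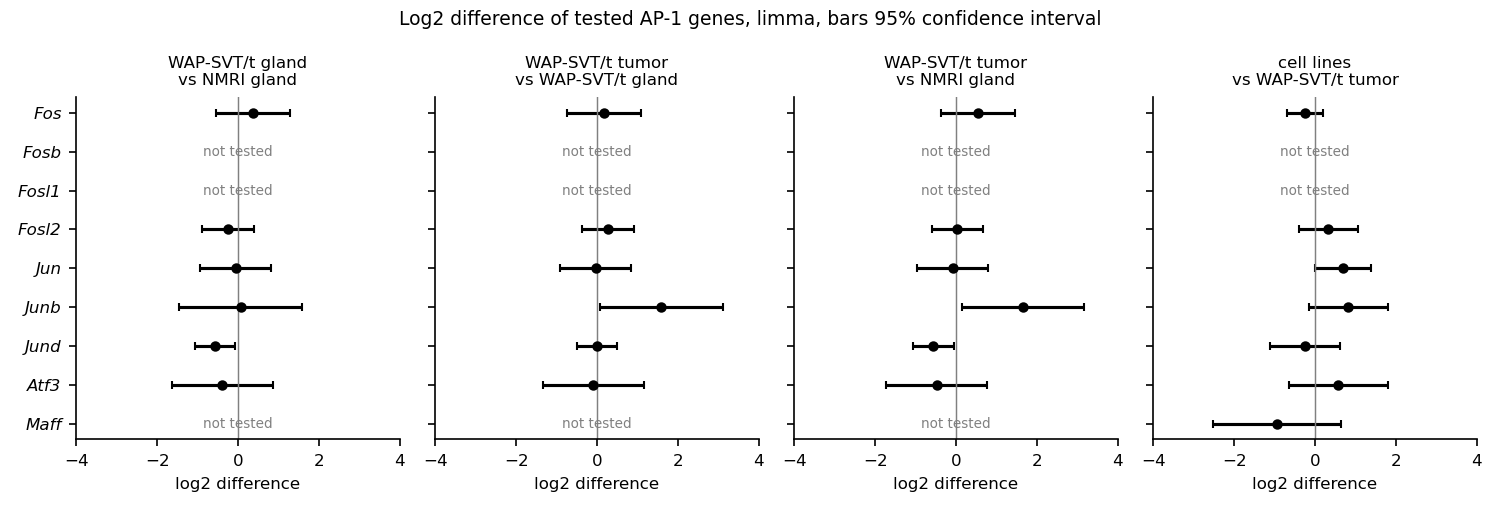
Log2 difference of each AP-1 gene that entered the fits, from limma, in the 4 comparisons with 3 arrays a side; points are estimates and bars 95% confidence intervals. The Junb intervals are the widest among tissues and lie above 0 for both tumor comparisons, those of Jund lie below 0 for both comparisons with NMRI glands, and no gene passed after adjustment over all genes.

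Between WAP-SVT/t and NMRI glands, the ranges of 0 of the 6 tested AP-1 genes were separate, against 31.1% of all genes tested. The count was also 0 of 6 for tumors against WAP-SVT/t glands, with 19.6% of all genes, and 0 of 6 for tumors against NMRI glands, with 43.9%. Between lines and tumors it was 2 of 7, Fos (lower in the lines) and Jun by 1417409_at (higher), against 23.5% of all genes. On 1448694_at, which stood for Jun among tissues, lines and tumors overlapped, with a log2 difference of 0.15. At an unadjusted limma p under 0.05 there was 1 gene between genotypes (Jund), 1 between tumors and WAP-SVT/t glands (Junb), 2 between tumors and NMRI glands (Junb and Jund) and 0 between lines and tumors. The shares of all genes at that p were 26.2%, 16.4%, 38.2% and 16.7% in the same order. The median log2 difference of the tested genes was -0.15, 0.08 and -0.03 in the 3 tissue comparisons in that order, against 0.01, 0.00 and 0.02 over all genes. Between lines and tumors it was 0.33 against 0.00. Exact permutation of 3 against 3 arrays cannot give a two-sided p under 0.1.

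The cell lines differed most in Fosl1 and Maff, both high in ME-B. With 1 array a line there is no test, and 8 of the 9 genes, all but Fosb, were above the median on at least 1 line. Fosl1 was 9.35-fold higher in ME-B than in ME-A and 6.76-fold lower in ME-B-T/t than in ME-B. The second Fosl1 probe set was at least 2.54-fold higher in ME-B than in either of the others. Maff was at least 5.15-fold higher in ME-B than in ME-A or ME-B-T/t, where it was below the floor. Those 2 genes passed 4-fold in both comparisons, against 7.11% of all 7945 genes between ME-B and ME-A and 1.69% between ME-B-T/t and ME-B. Both entered the count through ME-B alone, since they lay below the median of 139.9 in the other lines. The shares are therefore context and no support. With the floor at the 40th percentile Maff no longer passed in either. Of all genes, 0.189% were 4-fold higher in ME-B than in both other lines. Both contrasts use the single ME-B array.

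Jund and Atf3 lay the other way. Atf3 was 3.83-fold lower in ME-B than in ME-A and 3.18-fold higher in ME-B-T/t than in ME-B. Jund was 2.63-fold lower and 2.05-fold higher in the same comparisons. ME-B was thus the low line for both, short of the 4-fold rule. Between ME-B-T/t and ME-A, 0 of the 8 genes differed by 4-fold or by 2-fold, against 7.61% and 24.1% of all genes. The largest difference there was 1.78-fold, for Fosl2, which was 1.82-fold higher in ME-B than in ME-A and within 1.02-fold between the ME-B lines. The 12 luminal markers had a mean log2 of 11.24 in ME-A, 6.61 in ME-B and 6.35 in ME-B-T/t. Krt19, a luminal keratin, read 3147.9 in ME-A, 931.7 in ME-B and 107.7 in ME-B-T/t, and the part of such marker differences in the AP-1 values was not tested.

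**Figure D4:**
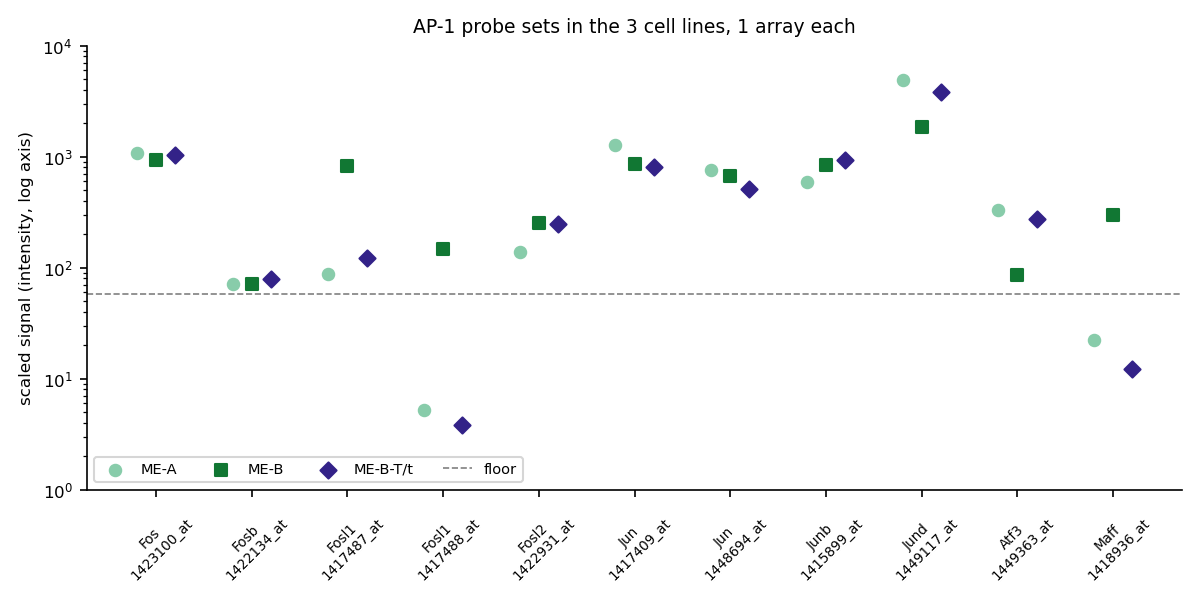
Scaled signal (intensity, log axis) of the 11 AP-1 probe sets in the 3 cell lines, 1 array each, with the floor of 57.4 dashed. ME-B stands above both other lines for Fosl1 and Maff and below both for Jund and Atf3, while the Fos, Jun and Junb probe sets lie close together.

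Other immediate early genes, switched on by the same signals, passed the test in tumors. The list held 30 genes chosen from textbook knowledge, 25 of them tested. Between WAP-SVT/t and NMRI glands 2 rose and 0 fell, Egr1 and Ccn1, with a list median of 0.29. Between tumors and WAP-SVT/t glands 1 rose and 0 fell, Nr4a1, with a median of 0.57. Between tumors and NMRI glands 11 rose and 1 fell, with a median of 1.10. The all-gene medians were 0.01, 0.00 and 0.02, with 10.1%, 2.95% and 24.7% called. Between tumors and NMRI glands, 6 rose with the Gapdh ratio as a covariate, 5 without the filter on dim genes, and 7 without tumor 2 or without tumor 3. Between genotypes 4 rose with that covariate, 0 without the filter, and 1 without NMRI gland 1, WAP-SVT/t gland 1 or 2, or any 1 tumor. Between tumors and WAP-SVT/t glands 3 rose without NMRI gland 2 or without WAP-SVT/t gland 2. Macrophage markers changed in the same comparisons: of 11, 3 rose between genotypes, 0 passed between tumors and WAP-SVT/t glands, and 5 rose and 1 fell between tumors and NMRI glands. C1qa, a complement gene of macrophages, was 11.7-fold higher in tumors than in NMRI glands, C1qb 3.45-fold and C1qc 3.19-fold, while Cd14 was 3.16-fold lower. By gene, 9 of the 11 were higher in tumors than in NMRI glands and 2 lower, with a median log2 difference of 1.00. The summed signal of the 11 ran from 11052 to 17775 in NMRI glands, from 10823 to 22365 in WAP-SVT/t glands and from 14050 to 17051 in tumors. Cd14 alone read 4843.2 to 12509.2 in NMRI glands and 1724.7 to 4637.2 in tumors, so the sum does not show the rise of the others. The part of these markers in this and the next lists was not tested.

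Egr1, a zinc finger factor of growth signalling, read 386.3, 831.6 and 1132.2 in NMRI glands 1 to 3, 1871.3, 3222.2 and 4069.1 in WAP-SVT/t glands 1 to 3 and 4205.9, 2481.9 and 2580.6 in tumors 1 to 3. The gland groups did not overlap, and the difference was 2.03 on the log2 scale (SE 0.41, limma adjusted p = 0.0103). Without the filter on dim genes its adjusted p was 0.0571. Nr4a1, an orphan nuclear receptor, read 202.0 to 287.8 in the 6 glands and 942.4, 1079.6 and 801.9 in the tumors. It rose by 1.77 against WAP-SVT/t glands (SE 0.22, limma adjusted p = 0.0023) and passed under all 13 alternatives checked for named genes. Ccn1, a matricellular protein also called CYR61, rose by 2.50 in tumors against NMRI glands (SE 0.42, limma adjusted p = 0.0017), and Nfkbiz, a nuclear regulator of NF-kappaB, by 1.49 (SE 0.27, limma adjusted p = 0.0028). Both passed under the same 13 alternatives, though a second Nfkbiz probe set differed by 0.59 (SE 0.38). Between genotypes Ccn1 (1.49, limma adjusted p = 0.0473) passed in 4 of them. Fos, from the same class of genes, differed by 0.54 between tumors and NMRI glands and did not pass.

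Some feedback inhibitors of MAP kinase signalling, the pathway upstream of AP-1, passed in tumors too. Of 10 tested, 1 rose between genotypes, against 10.1% of all genes called, Spred1 (log2 1.20, limma adjusted p = 0.0146; not passed without NMRI gland 1 or 2). Between tumors and WAP-SVT/t glands 2 rose, Spry1 and Dusp6, and 1 fell, Dusp10, against 2.95%, and with any 1 of the 9 tissue arrays left out 0 or 1 rose and 0 fell. Between tumors and NMRI glands 5 rose and 2 fell, against 24.7%, with a median of 0.47 that turned to -0.13 after quantile normalization. The 5 became 2 without NMRI gland 2 and 3 without NMRI gland 1, tumor 1 or tumor 2. Dusp6, a phosphatase of ERK, read 270.7 to 505.4 in NMRI glands, 334.2 to 1092.1 in WAP-SVT/t glands and 3771.7, 2882.5 and 1440.0 in tumors 1 to 3. It rose by 2.61 against NMRI glands (SE 0.48, limma adjusted p = 0.0028), and against WAP-SVT/t glands (2.18, limma adjusted p = 0.0348) it passed in 4 of the 13 alternatives, Spry1 in 3 and Dusp10 in 2. Spred1, an inhibitor of RAF activation, rose by 2.20 against NMRI glands (SE 0.26, limma adjusted p = 2e-04). Dusp10, a phosphatase of p38 and JNK, fell by 1.32 (SE 0.24, limma adjusted p = 0.0025).

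Of 31 genes often given as AP-1 targets, 21 were tested. Between genotypes 2 rose and 0 fell, Ezr and Vim, with a median of 0.00, against 10.1% of all genes called. The 2 became 0 without NMRI gland 1, NMRI gland 2 or WAP-SVT/t gland 3, and 1 without WAP-SVT/t gland 1 or 2, without tumor 2 or without the filter on dim genes. Between tumors and WAP-SVT/t glands 4 rose and 0 fell (median 0.44), against 2.95%, and between tumors and NMRI glands 7 rose and 1 fell (median 0.84), against 24.7%. The 4 became 1 without the filter on dim genes, without WAP-SVT/t gland 1 or without tumor 2, and 2 without tumor 1 or with the Gapdh covariate. The 7 became 3 without tumor 1 and 4 without tumor 2. Many of these genes have other regulators, and the list's name is no evidence that AP-1 acted on them. Hbegf, a ligand of the EGF receptor, read 54.8 to 177.2 in the 6 glands and 339.4, 1360.7 and 496.0 in tumors 1 to 3, and rose by 2.84 against WAP-SVT/t glands (SE 0.49, limma adjusted p = 0.0111). It passed in 10 of the 13 alternatives, and not without WAP-SVT/t gland 1, without the filter on dim genes or with the Gapdh covariate. Mgp, matrix Gla protein, rose by 2.67 against NMRI glands (SE 0.36, limma adjusted p = 4e-04), and Cdkn2a, which encodes the p16 and p19 tumor suppressors, was at least 4.98-fold higher in tumors than in either gland group. Ezr, the ezrin gene, rose by 1.36 in tumors and by 0.97 in WAP-SVT/t glands against NMRI glands, but its second probe set differed by -0.11 and -0.34.

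**Figure D5:**
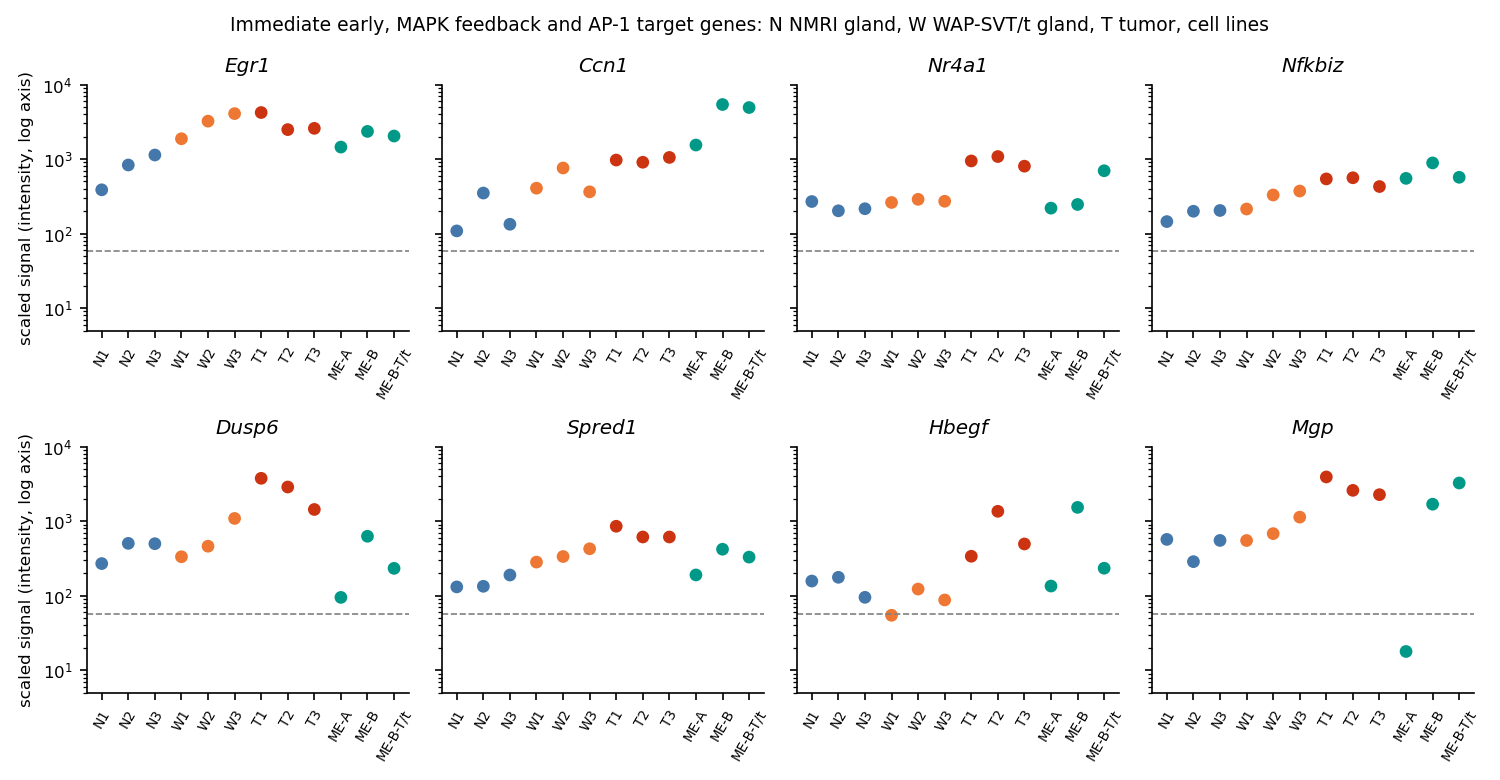
Scaled signal (intensity, log axis) of 8 immediate early, MAP kinase feedback and AP-1 target genes named in the text on the 12 arrays, with N for NMRI glands, W for WAP-SVT/t glands, T for tumors and the 3 lines at the right; the dashed line is the floor of 57.4. Nr4a1 and Hbegf are higher in the 3 tumors than in all 6 glands, and Egr1 is already higher in the WAP-SVT/t glands than in the NMRI glands.

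Among factors with a leucine zipper that can pair with AP-1 proteins, Nfe2l3 differed most in tumors. Of 21 tested, 1 fell between genotypes, against 10.1% of all genes called, Atf4, a factor of the amino acid and unfolded protein response (-0.81, limma adjusted p = 0.0357). It passed in 7 of the 13 alternatives, and its second bright probe set differed by -0.01. Nfe2l3, a factor of the CNC class that pairs with small MAF proteins, read 656.0, 1527.4 and 1974.5 in NMRI glands 1 to 3, 508.6, 635.6 and 480.8 in WAP-SVT/t glands 1 to 3 and 87.7, 173.7 and 72.6 in tumors 1 to 3. It fell by 3.60 between tumors and NMRI glands (SE 0.42, limma adjusted p = 2e-04) and fell by 2.38 between tumors and WAP-SVT/t glands (limma adjusted p = 0.0132), where it passed in 10 of the 13 alternatives, with the same 3 exceptions as Hbegf. A second, dimmer probe set differed by -1.73 and -0.37. Between tumors and NMRI glands 3 of the 21 fell (Nfe2l3, Creb3 and Nfe2l2) and 1 rose (Batf3), against 24.7% of all genes called, and the 3 became 1 without the filter on dim genes, without NMRI gland 1 or without tumor 2. Maff, a partner of Nfe2l3, was higher in the tumors. Milk markers were lower in tumors too. Their summed signal was 121170 to 141071 in NMRI glands, 44227 to 51527 in WAP-SVT/t glands and 9875 to 17213 in tumors. The part of these markers in the Nfe2l3 values was not tested.

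Kinases and factors that activate AP-1 genes (MAP kinase and serum response factor input) held 17 tested genes, of which 1 rose between genotypes, Rps6ka3, which passed in 8 of the 13 alternatives and whose other probe sets differed by -0.47 and -0.05. In the other tissue comparisons 0 of the 17 passed. Of 12 genes of JUN and FOS turnover, Senp1, a SUMO protease, was the 1 that rose between tumors and NMRI glands (0.93, limma adjusted p = 0.0481), in 3 of the 13 alternatives, with a second probe set near the floor at -0.10, and 0 passed in the other tissue comparisons. Heat shock and handling stress genes, which bear on how tissue was collected, held 15 tested genes. Dnajb1, a chaperone, rose between genotypes (1.14, limma adjusted p = 0.0168), though not without NMRI gland 1 or 2, while its second probe set differed by -0.47. Dnajb1 and Hspa1a rose between tumors and NMRI glands, in 7 and 8 of the 13 alternatives. Of the 15, 0 rose there without NMRI gland 2, tumor 2 or tumor 3 or with the Gapdh covariate, 3 without NMRI gland 3 or tumor 1, and 4 without WAP-SVT/t gland 3. In the last tissue comparison 0 of the 15 passed between tumors and WAP-SVT/t glands, and the part of handling in the AP-1 values was not tested. Between lines and tumors, Trib1, a pseudokinase gene of the immediate early list, fell by 2.04 (limma adjusted p = 0.0338). It was the only gene of these 7 lists called there, against 2.3% of all genes, and it passed in 2 of 6 alternatives, with a second probe set that averaged below the floor. Without ME-A, 4 immediate early genes rose and 3 fell, and 3 target genes rose and 3 fell.

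More AP-1 target genes were higher than lower in ME-B against ME-A. Between ME-B and ME-A, 11 of 22 were 4-fold or more higher and 1 was lower, with a median log2 difference of 1.84, against 2.97% higher, 4.14% lower and a median of 0.00 over all genes. Mgp was at least 29.5-fold higher, Vim, the vimentin gene, 23.9-fold and Timp1, an inhibitor of matrix metalloproteinases, 16.4-fold. A gene entered the count where at least 1 line exceeded 139.9. Mgp, Mmp3, Hmga2, Ptgs2 and Hbegf read 17.9, 53.6, 94.5, 114.3 and 135.2 in ME-A. They entered through the ME-B lines, Mmp3 through ME-B alone. Vim, Timp1, Ccn2, Ccnd1, Cd44 and Plaur exceeded 139.9 in ME-A too. Mgp, Hmga2 and Ptgs2 were also 4-fold higher in ME-B-T/t than in ME-A. The shares of all genes are therefore context and no support. In ME-B-T/t against ME-A, where Fosl1 was 1.38-fold higher and Maff was below the floor in both, 6 of the 22 target genes were 4-fold higher and 3 lower (median 0.97), against 3.96% and 3.65% of all genes. Fibroblast markers were higher in both of these comparisons, and basal and myoepithelial markers went both ways. Of 9 fibroblast markers on the array 8 were above the floor in ME-B and in ME-B-T/t and 3 in ME-A, with summed signals of 4322, 13901 and 1891. The 10 basal and myoepithelial markers summed to 6806, 12705 and 1979 in that order. Acta2, smooth muscle actin, made up most of the sum in both ME-B lines, at 5095.1 and 10535.3, and was 21.8-fold higher in ME-B than in ME-A. Krt14, a basal keratin, went the other way, at 242.8 in ME-B, 11.8 in ME-B-T/t and 1324.6 in ME-A. Of the 5 that passed the filter, 2 were 4-fold higher and 1 lower in ME-B than in ME-A. For ME-B-T/t against ME-A these counts were 3 and 1. ME-A had all 12 luminal markers above the floor and ME-B 6, and the part of these markers, or of AP-1, in the target genes was not tested. Between ME-B-T/t and ME-B, 0 of 22 were 4-fold higher and 3 were lower (median -0.69), against 1.12% and 0.566% of all genes, namely Hbegf, 6.55-fold, Mmp3, 4.24-fold, and Lif, at least 4.17-fold. Hbegf read 135.2, 1536.1 and 234.5 in ME-A, in ME-B and in ME-B-T/t, the order seen for Fosl1. Mmp3 had the same order, at 53.6, 428.5 and 101.1. Lif did not, at 428.2, 239.4 and 36.5, and was highest in ME-A. Vim and Mgp stayed high in ME-B-T/t, at 10769.0 and 3262.7, against 11495.3 and 1695.2 in ME-B.

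Of 12 feedback and 24 immediate early genes, 3 each were 4-fold or more higher in ME-B than in ME-A and 0 were lower, against 2.97% and 4.14% of all genes. Ptgs2, the inducible cyclooxygenase, was 15.9-fold higher, Dusp1, a phosphatase in both lists, 8.29-fold, Dusp6 6.61-fold, Spred2 5.27-fold and Ccn2, a matricellular protein, 5.04-fold. In ME-A, Ptgs2 and Dusp6 lay below 139.9, at 114.3 and 95.2, while Dusp1, Spred2 and Ccn2 lay above it. Ptgs2 and Ccn2 were also counted among the target genes above, so the immediate early list added no gene of its own here. In ME-B-T/t against ME-B, Sgk1, a serum-induced kinase, was 4.21-fold lower. Ddit3, the stress factor CHOP, was 6.58-fold higher in ME-B-T/t than in ME-B, at 1231.7 against 187.3, alongside the 3.18-fold higher Atf3. In ME-A, however, Ddit3 read 208.2 with Atf3 at 330.2.

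Nearest genes across the 12 arrays were sought for the 7 AP-1 genes above the filter, which left out Fosb and Fosl1. Over 8186 genes, log2 Maff was most like Hbegf (Pearson's r = 0.91), Aqp5 (0.90) and Polr2d (0.90). Maff lay above the floor on 4 of the 12 arrays, the tumors and ME-B. Each r with Maff therefore mainly sets those 4 arrays against the rest. Fos was most like Osmr (0.95), Naa35 (0.88) and Lpcat1 (0.88), and Junb like Fance (0.98), Nrbp1 (0.97) and Vasp (0.97). Fosl2 was most like Syt11 (0.93), Slc7a6 (0.89) and Nptn (0.87), Jun like Clip1 (0.86), Wdr26 (0.85) and Cnih4 (0.82), Jund like Ribc1 (0.89), Ifi30 (0.89) and Sirt3 (0.88), and Atf3 like Bri3 (0.82), Washc1 (0.82) and Ddr1 (0.80). Among themselves, Fos and Jun (1448694_at) had r = 0.72, Jun and Atf3 0.65 and Fos and Atf3 0.53, and all 3 were lowest in NMRI gland 1. Jund and Maff had -0.54. These values describe 12 arrays of mixed tissues and lines that share depth, RNA quality and cell makeup.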

How the data were processed

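RNA of 12 samples was hybridised to single-color Affymetrix arrays, 1 array a sample. The deposited values are linear intensity signals per probe set, computed by the authors in MAS5 according to the submitters' processing notes; neither its version nor its scaling target is stated there. Trimmed means (2% off each end) lay within 1.19-fold of each other. Raw scans were not used here.

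Each array was scaled to a common trimmed mean, values below 57.4, the pooled 30th percentile, were raised to it, and log2 was taken. Folds against a group wholly at the floor are given as at least that size. Of 22690 probe sets, 20380 named 1 gene, 691 several and 1555 none, and 64 were controls; the last 3 kinds were left out. Where several probe sets named 1 gene, the brightest by mean log2 over the fit's arrays represented it, and a gene was tested if at least 3 arrays (1 line, between lines) exceeded the pooled median of 139.9. The 9 tissue arrays were fitted together, and the 3 lines against the 3 tumors as a class, with limma 3.58.1 in R 4.3.3 (lmFit, eBayes with trend, two-sided, Benjamini-Hochberg over all genes, adjusted p under 0.05). The fit was tested on simulated data. Line pairs had no test and a 4-fold rule. Figures used matplotlib 3.10.9 in Python 3.11.15.

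Every AP-1 probe set is named; of each other list, up to 3 called genes with the smallest p, or up to 3 past 4-fold in line pairs, a limit that ties and genes of 2 lists can exceed; and for each AP-1 gene the 3 with the highest correlation. The genes and lists were chosen with earlier results of these data known.

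Replicate numbers come from the sample titles. Deviations of same-numbered NMRI and WAP-SVT/t glands correlated at 0.222, 0.372 and 0.372 over 7899 genes, which allows them to be taken as pairs; the reported fits have no replicate block, and a fit with it is an alternative. What they stand for is not given in the labels. Alternatives covered scaling, floor, filter, probe set rule, trend, samples in the fit, a replicate block, the Gapdh ratio and leaving out each array.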

Additional observations from a re-analysis of the deposited data

How the results depend on the processing

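Precision is limited by 3 arrays a group and by the floor, under which Maff in the glands and Fosl1 1417488_at outside ME-B have no measured level. Of 515 recomputed log2 differences of AP-1 genes, 500 kept their size within the spread and their side of the threshold, 10 moved and 5 newly passed. The sign differed from the reported one in 38, of which 0 had passed the threshold in either fit; these include Jun between tumors and NMRI glands (-0.59 to 1.40 over the alternatives) and Fos between genotypes (-0.13 to 0.81). The cause of each change below was not tested, except where a smaller or larger set of genes or arrays makes it.

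With the replicate block, which the gland numbers allow, genes called between genotypes numbered 928 (801 without it; 1177 when only the 6 glands were fitted, an alternative chosen after seeing the data) and no AP-1 call changed. The numbers of tumors did not pair (correlations -0.172 to 0.329 with WAP-SVT/t glands and -0.105 to 0.162 with NMRI glands); with the block there, Junb passed against WAP-SVT/t glands (limma adjusted p = 0.0368) and NMRI glands (0.00724), so 1 AP-1 gene was called in place of 0, with 283 and 2152 genes in all. Without the filter on dim genes 1 AP-1 gene, Maff, passed in both tumor comparisons, with 71 genes called between tumors and WAP-SVT/t glands and 91 between lines and tumors. Fitting only the groups compared gave 124 genes between tumors and WAP-SVT/t glands. The Gapdh covariate gave 101 there and 54 between lines and tumors, where testing every probe set gave 260. With 1 array left out, genes called ran from 394 to 807 between genotypes (394 without NMRI gland 1, 429 without NMRI gland 2), from 69 to 228 between tumors and WAP-SVT/t glands (69 without tumor 2, 111 without WAP-SVT/t gland 1, 125 without WAP-SVT/t gland 3) and from 1227 (without NMRI gland 1) to 2279 between tumors and NMRI glands. Between lines and tumors they ran from 0 to 779: 0, 1 and 3 without tumors 1, 2 and 3 by limma (729, 797 and 798 at an unadjusted p under 0.05), 779 without ME-A, 61 without ME-B and 85 without ME-B-T/t. AP-1 genes called then ran from 0 to 1 between genotypes and between tumors and NMRI glands (Atf3 without NMRI gland 1 in both, Junb without NMRI gland 2 in the latter), and were 0 throughout in the other comparisons. Of the 2 genes past 4-fold in ME-B against ME-A and in ME-B-T/t against ME-B, 1, Fosl1, remained with the floor at the 40th percentile, and 4 passed at 2-fold.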
